A study of Mus musculus with 2 samples.

Results

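Expression of 10 genes of early neural fate and of the neural cytoskeleton (Nes, Pax6, Tubb3, Ncam1, Map1b, Map2, Dpysl3, Mapt, Stmn2 and Dcx) was compared between E14 embryonic stem cells (ESCs) and E14-Sox2 TA/WT cells, called TA/WT cells below. The 10 genes were chosen by name, with earlier results of these data known, and are 10 of the 24532 genes in the table. E14 is an established mouse ESC line and was wild type here. TA/WT cells are E14 cells with T258A, an alanine in place of threonine 258, in 1 allele of Sox2, made with CRISPR/Cas9 and grown from individual cells, while the other allele was wild type. Parental cells were kept in serum with leukemia inhibitory factor, and edited clones were selected and maintained with added inhibitors of Mek and Gsk3 (2i) that were withdrawn before use. Each genotype had 1 library of polyadenylated RNA, so genotype, clonal origin, culture history and library cannot be told apart, differences were not checked in replicates, and p-values are not given.

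A neural fate begins when pluripotent cells turn into neuroepithelium, in which the transcription factor Pax6 and the intermediate filament protein nestin (Nes) mark dividing progenitors. Progenitors that leave the cell cycle build an axon and dendrites on stable microtubules, and for this they use a neuron-enriched β-tubulin (Tubb3), proteins that bind and bundle microtubules (Map1b, Map2, tau from Mapt, doublecortin from Dcx), a protein that binds free tubulin (Stmn2), a growth cone protein of the Crmp family (Dpysl3) and the adhesion molecule Ncam1. Several of these genes are also read in cells that are not neural, so a transcript level alone does not name a cell type.

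The libraries held 60263536 reads (E14) and 44609228 reads (TA/WT). Values are given as reads and as TPM, a unit of transcript abundance that divides reads by transcript length and by the size of the library and so allows levels of different genes to be compared. The 95% intervals given below cover the counting of reads alone, and PCR copies of 1 molecule are counted as separate reads. All 12 ESC genes examined were expressed at a TPM of at least 10, of which 6 were higher and 6 lower in TA/WT cells, with a median log2 ratio of -0.10. Nanog was the 1 gene of them past 2-fold, with a TPM of 526.9 in E14 and 251.3 in TA/WT cells, Dppa5a had a log2 ratio of -0.63, and Sall4 (0.61) and Dppa4 (0.40) were at the other end. Sox2, the edited gene, had a TPM of 372.5 and 274.2, and the edit itself cannot be seen in a table of counts.

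The 10 genes spanned a wide range of levels. In E14 the order of TPM was Stmn2, Tubb3, Map1b, Dpysl3, Nes, Ncam1, Map2, Mapt, Pax6 and Dcx. Stmn2 and Tubb3 stood far above the others in both libraries, and Dcx was at the lower end in both. Dpysl3 and Nes could not be told apart by counting in E14, nor could Map2 and Mapt, whose intervals overlapped. In TA/WT cells Nes moved up to the third place, beside Map1b, with overlapping intervals (TPM 36.2 and 34.8), and Pax6 moved above Mapt. The summed TPM of the 10 genes was 444.3 in E14 and 413.3 in TA/WT cells, and Stmn2 made up 73.6% and 60.7% of it. Without Stmn2 and Tubb3 the sum of the other 8 genes was 40.0 in E14 and 96.6 in TA/WT cells. The 2 most abundant genes were thus lower, and the others together higher, in TA/WT cells.

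**Figure D1:**
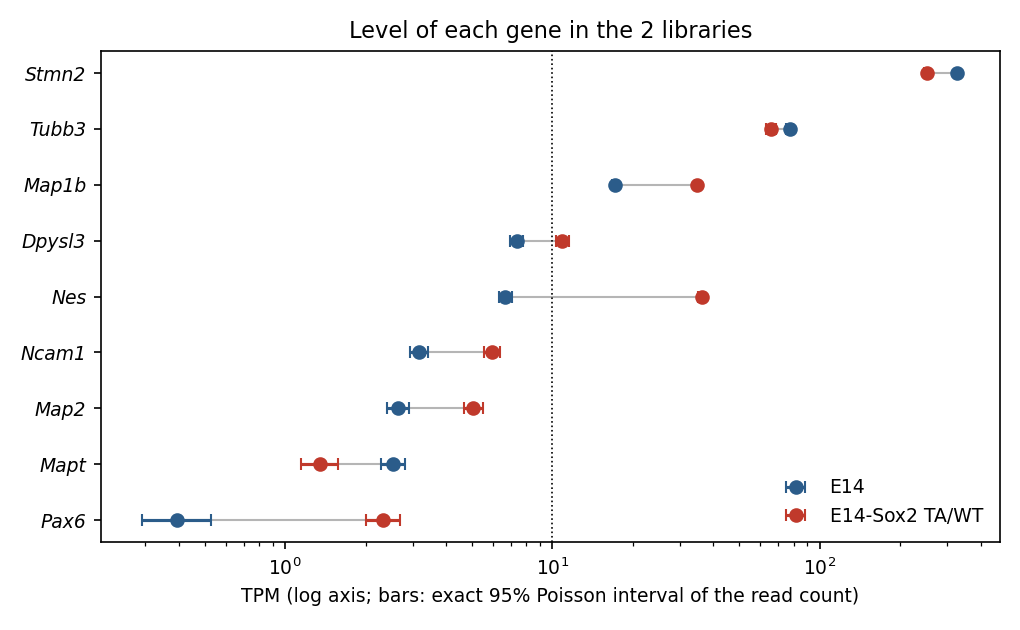
Level of 9 genes in TPM (log axis) in the E14 library (blue) and the TA/WT library (red), with exact 95% Poisson intervals of the read count, and a dotted line at a TPM of 10. Nes and Pax6 are farthest apart, while Stmn2 and Tubb3 are the most abundant and lie slightly to the left in TA/WT cells. Dcx, with 0 and 3 reads, is not drawn.

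Genes were kept when their TPM reached 10 in either library, and differences past 2-fold were counted. Stmn2, Tubb3, Map1b, Nes and Dpysl3 passed this filter, and the other 5 genes did not. Nes and Map1b, 2 of the 10 genes, were more than 2-fold higher in TA/WT cells, and 0 were more than 2-fold lower. The Map1b call was lost under 10 of 16 alternatives, among them all other scalings, which left Nes alone. Over all 9094 genes past the filter, 4.17% were more than 2-fold higher and 4.07% more than 2-fold lower (379 and 370 genes), a balance that depended on scaling, with 280 higher and 496 lower when counts were scaled by the total. With a TPM of at least 1 in place of 10, 9 of the 10 genes were kept, 3 were more than 2-fold higher (Pax6 in addition) and 0 lower, beside 6.45% higher and 9.95% lower of 13729 genes. Of these 9 genes, 6 were higher and 3 lower in TA/WT cells by TPM, and 52.4% of the 13729 genes were higher. The median log2 ratio of the 9 genes, with 0.1 added to each TPM, was 0.88, against 0.01 over the 16313 genes whose mean TPM reached 0.1. It was 0.36 with a trend on transcript length removed and 0.37 with trends on GC content and length removed. A filter keeps a low gene through the library in which it is high, so these counts describe the 2 libraries and are not a test.

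**Figure D2:**
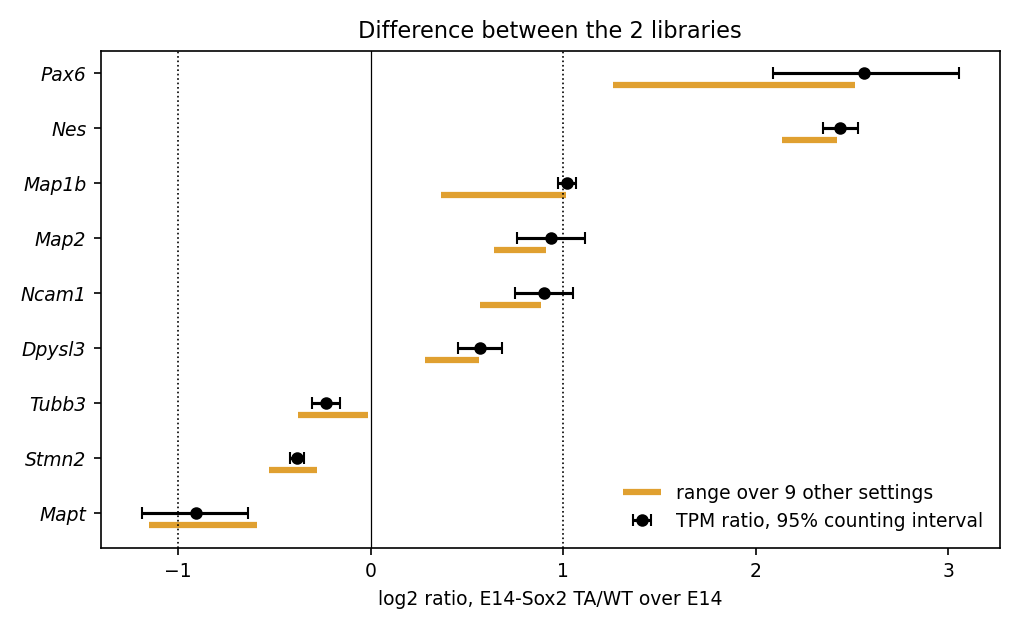
Log2 ratio of TPM in TA/WT cells over E14 for 9 genes, with the 95% counting interval (black) and the range over 9 other settings of scaling, pseudocount and trend removal (orange); dotted lines mark 2-fold. Pax6 and Nes lie past 2-fold in all settings, Map1b lies at the line and moves inside it, and Tubb3, Stmn2 and Mapt lie below 0.

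Nes, which encodes the intermediate filament protein of neural progenitors, had 1288 reads (TPM 6.67) in E14 and 4677 reads (TPM 36.2) in TA/WT cells. Nes was thus 5.42-fold higher (95% counting interval 5.10 to 5.77), although the TA/WT library held fewer reads in all. In these bulk libraries more cells that express a gene and more RNA per cell cannot be told apart. The log2 ratio of Nes was 2.44 and ran from 2.13 to 2.42 over the 9 other settings. With 0.1 added to each TPM it was 2.42, at percentile 99.0 of the 13729 genes whose TPM reached 1. Nes (Entrez 18008) lies on chromosome 3 (87971093 to 87980451, plus strand, GRCm38.p6), the chromosome that also carries Sox2 and Stmn2.

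Pax6 (Entrez 18508, chromosome 2, 105668896 to 105698410, plus strand), a paired box transcription factor of the neural tube, eye and pancreas, was scarce in both libraries, with 47 reads (TPM 0.396) in E14 and 183 reads (TPM 2.33) in TA/WT cells. The ratio was 5.90-fold (4.26 to 8.31), so Nes and Pax6 were not told apart in their difference by counting. Pax6 stayed under a TPM of 10 and depended on the pseudocount, with a log2 ratio of 2.56 without one and 1.26 when 1 was added to each TPM. Within the Pax family it was the most abundant gene in TA/WT cells. Pax8 had 97 and 19 reads and Pax7 had 37 and 8 reads in E14 and TA/WT cells, both lower in the latter. Pax1, Pax2 and Pax3 had at most 31 reads in a library, Pax9 had 19 and 0 reads, and Pax4 and Pax5 had no reads in either library.

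The bases before the annotated start of Nes and Pax6 are printed because both genes were more than 5-fold higher, and those of Tubb3, which was not, are printed for comparison. They come from RefSeq (GRCm38.p6), and promoter windows of 6 of the 10 genes were examined. Each window is the 250 bases before a start, 5′ to 3′ on the strand of the gene. Capitals mark matches on either strand to 7 short motifs: the SOX cores ACAAAG and ACAATG, the POU octamer ATGCAAAT, the E-box CAGCTG, the TATA box TATAAA, the motif TTCAGCACC, part of the element bound by the neuronal repressor Rest, and the GC box GGGCGG.
Nes, chr3:87970843-87971092, plus strand: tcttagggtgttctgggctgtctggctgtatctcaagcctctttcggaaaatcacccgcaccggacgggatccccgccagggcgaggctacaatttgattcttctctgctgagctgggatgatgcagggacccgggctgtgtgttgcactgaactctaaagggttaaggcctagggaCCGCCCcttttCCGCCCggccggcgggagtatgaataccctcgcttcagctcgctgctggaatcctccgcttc
Pax6, upstream start, chr2:105668646-105668895, plus strand: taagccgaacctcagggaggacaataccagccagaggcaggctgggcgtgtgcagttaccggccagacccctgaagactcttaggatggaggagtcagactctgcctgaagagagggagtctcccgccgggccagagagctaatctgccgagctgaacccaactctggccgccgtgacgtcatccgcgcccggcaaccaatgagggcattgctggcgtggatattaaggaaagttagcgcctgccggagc
Pax6, downstream start, chr2:105682213-105682462, plus strand: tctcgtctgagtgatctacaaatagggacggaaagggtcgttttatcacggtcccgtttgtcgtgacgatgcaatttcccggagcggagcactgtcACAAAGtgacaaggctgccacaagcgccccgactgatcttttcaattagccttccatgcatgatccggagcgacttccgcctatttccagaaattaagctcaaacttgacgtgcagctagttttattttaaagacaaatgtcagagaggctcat
Tubb3, chr8:123411303-123411552, plus strand: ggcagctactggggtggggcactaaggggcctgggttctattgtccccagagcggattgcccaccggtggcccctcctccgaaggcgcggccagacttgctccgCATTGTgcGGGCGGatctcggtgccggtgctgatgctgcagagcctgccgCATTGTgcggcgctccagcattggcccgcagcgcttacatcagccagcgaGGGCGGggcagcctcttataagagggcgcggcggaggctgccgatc

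The Nes window held 2 GC boxes and no SOX core, and the upstream Pax6 window held no match to the 7 motifs. The bases that follow the upstream Pax6 start, and those that follow the Map1b start, were not found in GENCODE transcripts of these genes. These 2 starts thus rest on RefSeq alone. The downstream Pax6 window held 1 ACAAAG, 154 bases before the start. The Tubb3 window held 2 copies of ACAATG, 146 and 96 bases before the start and both on the minus strand, and 2 GC boxes. The only other SOX core in the 8 windows was ACAAAG in a Dcx window. Windows of Ncam1, Dpysl3, Mapt and Stmn2 were not examined. Of 32841 promoter windows of the same length, 16.5% held ACAAAG, 10.7% ACAATG and 32.7% the GC box. The POU octamer (1.60% of all windows), the E-box (4270 of the 32841) and the Rest motif (0.301%) were in none of the windows of Nes, Pax6, Tubb3, Map1b, Map2 and Dcx. The TATA box letters (12.4% of all windows) were in those of Map1b and Dcx. The GC content of the windows printed was 58.8% for Nes, 60.8% and 47.6% for Pax6 and 68.0% for Tubb3, beside a median of 52.4% over all windows. A match to letters is not a binding site, and its absence says nothing about regulation outside these bases.

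Map1b (Entrez 17755, chromosome 13, 99421464 to 99516602, minus strand) encodes a large microtubule-associated protein of growing axons. It had 6419 reads (TPM 17.2) in E14 and 8712 reads (TPM 34.8) in TA/WT cells. At 2.03-fold higher (1.96 to 2.09), Map1b lay at the 2-fold threshold within counting error, and in log2 terms 1.02 became 0.97 with the counts scaled by TMM and 0.36 with the trend on transcript length removed. Map2 (Entrez 17756, chromosome 1, 66175202 to 66442583, plus strand), the microtubule-associated protein of dendrites, had 474 reads (TPM 2.65) and 595 reads (TPM 5.07), a log2 ratio of 0.94 (0.76 to 1.11). Mapt (Entrez 17762, chromosome 11, 104229409 to 104332090, plus strand), which encodes tau, went the other way, with 391 reads (TPM 2.54) in E14 and 152 reads (TPM 1.35) in TA/WT cells, a log2 ratio of -0.91 (-1.19 to -0.63). Thus of the related genes Map2 and Mapt, which were not told apart in E14, the former was 1.91-fold higher and the latter was lower in TA/WT cells.

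Mapt also differed in the length that its values imply. Reads divided by FPKM (reads scaled to transcript length and library size) and by the library total give an implied length, which was not measured directly. For Mapt this length was 4973 bases in E14 and 5416 bases in TA/WT cells, a difference of 8.91%. In the other 8 genes with reads in both libraries it differed by at most 2.12%, and in the genes with a single listed transcript (Nes, Tubb3, Map1b and Stmn2) by a few bases or less. Mapt has 5 transcripts in the table, and the GENCODE sequences matched to them are 1362 or 5253 bases long. The value in TA/WT cells lies above both, so the implied length is not a mean of these lengths. For Tubb3, with a single transcript, it was 1750 bases in E14 against a matched sequence of 1868 bases. With 152 reads in TA/WT cells and no replicate, the error of the implied length is not known. The Mapt ratio was -0.91 by TPM, -1.05 by FPKM and -0.93 by total count.

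Doublecortin (Dcx, Entrez 13193, chromosome X, 143855842 to 143933396, minus strand), a microtubule-binding protein of migrating young neurons, had 0 reads in E14 and 3 reads in TA/WT cells, at or under the floor of 3 reads, so no fold is given. A count of 0 allows up to 3 reads, or 0.0498 CPM (reads relative to the library total), and the same 3 reads correspond to 0.0673 CPM in TA/WT cells. Its relatives were low as well, apart from the doublecortin-like kinase Dclk2 (TPM 22.7 and 20.9). Dclk1 had 50 and 64 reads and Dclk3 had 63 and 11 reads. Dcdc2a had 14 and 4 reads, Dcdc2b had 5 and 0 reads, and Dcdc2c, Rp1 and Rp1l1 had none.

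Stmn2 (Entrez 20257, chromosome 3, 8509527 to 8561604, plus strand) encodes a stathmin that binds tubulin dimers and is used as a marker of neurons. In these ESCs it was the most abundant of the 10 genes and ranked 420 of 24532 genes by TPM in E14. It had 19612 reads (TPM 327.0) in E14 and 10084 reads (TPM 250.9) in TA/WT cells, a log2 ratio of -0.38 (-0.42 to -0.35). The other abundant stathmin, Stmn1, had a TPM of 483.5 in E14 and 709.7 in TA/WT cells, a log2 ratio of 0.55 (0.52 to 0.59), so the 2 highest stathmins differed in opposite directions. Stmn3 had a TPM of 21.3 and 14.6 (-0.54) and Stmn4 had 30 and 29 reads. In E14 the TPM of Stmn2 was nearer to that of Stmn1 than to that of Tubb3.

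Tubb3, the β-tubulin used to stain neurons, had 4197 reads (TPM 77.3) in E14 and 2392 reads (TPM 65.8) in TA/WT cells, a log2 ratio of -0.23 (-0.31 to -0.16). Across the 9 other settings it ran from -0.38 to -0.01, the last with the trends on GC content and length removed. Tubb3 (Entrez 22152) lies on chromosome 8 (123411553 to 123422015, plus strand), whose expressed genes had a median log2 ratio of 0.26, whereas that of chromosome 3 was 0.08. β-Tubulin genes resemble each other in sequence and how shared reads were counted is not given in the sources used here, so Tubb3 may share reads with its relatives. Of 16 other tubulin genes whose TPM reached 1, 0 were more than 2-fold higher, 3 were more than 2-fold lower and the median log2 ratio was -0.02. Of all genes at this filter, 6.45% were more than 2-fold higher and 9.95% more than 2-fold lower. The α-tubulin Tuba3a was farthest below, from a TPM of 47.2 to 9.49 (-2.31), followed by Tuba3b with 70 and 11 reads. At the other end were the β-tubulins Tubb5 (TPM 1215 and 1714, 0.50) and Tubb4b (TPM 617.2 and 816.6, 0.40).

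Dpysl3 (Entrez 22240, chromosome 18), a Crmp protein of the growth cone, shows how scaling enters these values. Its reads were almost equal, 1251 in E14 and 1244 in TA/WT cells, but the second library was smaller. Scaled by total count alone, the log2 ratio of Dpysl3 was 0.43. Its TPM was 7.35 and 10.9 (log2 ratio 0.57, 0.45 to 0.68), so depth gave only a part of the ratio by TPM. By TPM, all 4 other Crmp genes were higher in TA/WT cells. Crmp1 was 2.23-fold higher (2546 and 3812 reads), Dpysl2 had a log2 ratio of 0.80 and Dpysl5 of 0.51, and the interval of Dpysl4 (145 and 120 reads) ran from -0.05 to 0.67. The median of the 4 genes was 0.65, against 0.04 over the genes whose mean TPM reached 1.

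Ncam1 (Entrez 17967, chromosome 9, 49502129 to 49799393, minus strand), an immunoglobulin-type adhesion molecule of neural cells, had 659 reads (TPM 3.18) in E14 and 830 reads (TPM 5.93) in TA/WT cells. Its log2 ratio of 0.90 (0.75 to 1.05) reached neither a TPM of 10 nor 2-fold. The 6 other adhesion genes whose TPM reached 1 had a median of -0.39. Among them 0 were more than 2-fold higher or lower, beside 6.45% and 9.95% of all genes at this filter. Cntn2 (-0.91) and Cadm4 (-0.81) were at one end and Nptn (0.44) and Cadm1 (0.40) at the other. Among the genes of this list under a TPM of 1 were the enzymes that attach polysialic acid to Ncam1, St8sia2 with 6 and 28 reads and St8sia4 with 7 and 59 reads. They were named after their values were seen. An antisense gene of Ncam1 in the table, Gm11149, had no reads in either library.

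Among the genes past a TPM of 10, long transcripts had higher ratios than short ones. The genes past a TPM of 10 were divided into 5 groups of nearly equal size by the length implied in E14. The group of the shortest transcripts, up to 1502 bases, had a median log2 ratio of -0.16, and the median was higher in each further group, up to 0.39 in the longest, above 4487 bases. Nes, Map1b and Dpysl3 lay in the longest group and Tubb3 (1750 bases) and Stmn2 (1934 bases) in the second shortest. Ncam1, Map2 and Mapt were under a TPM of 10 and so in no group, but their implied lengths also exceeded 4487 bases, from 4973 bases for Mapt to 6684 bases for Ncam1. With this trend removed, the log2 ratio was 2.13 for Nes, 2.46 for Pax6, 0.64 for Map2, 0.57 for Ncam1, 0.36 for Map1b, 0.28 for Dpysl3, -0.13 for Tubb3, -0.28 for Stmn2 and -1.15 for Mapt. The median of the 9 genes was then 0.36 in place of 0.88. No gene changed its direction, Nes and Pax6 stayed past 2-fold, and Mapt passed 2-fold lower while its TPM stayed under 10. The part of this trend in the differences was not tested.

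**Figure D3:**
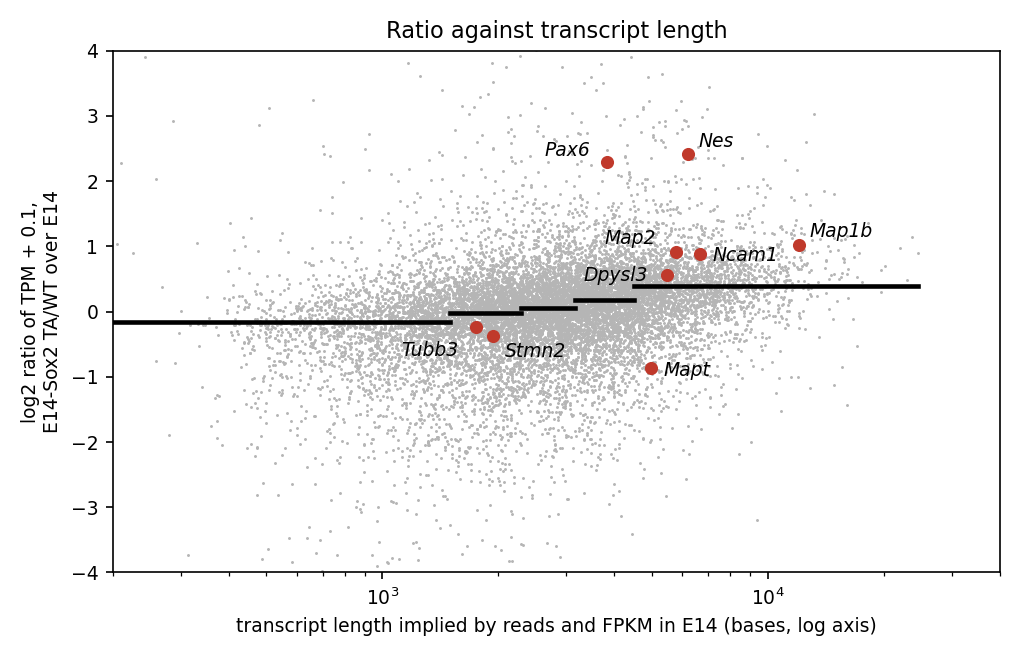
Log2 ratio (TPM plus 0.1) of TA/WT cells over E14 against the transcript length implied in E14 (bases, log axis) for genes whose TPM reached 1 (grey); black lines are the medians of the 5 length groups of genes past a TPM of 10, from -0.16 to 0.39. Nes and Pax6 lie far above the lines, Map1b, Map2 and Ncam1 less so, and Mapt below; 314 genes outside the axes are not drawn.

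The other genes of neural fate and of the cytoskeleton were examined next, in lists that leave out the 10 genes. Of 140 such genes whose TPM reached 1, 27 (19.3%) were more than 2-fold higher and 10 (7.14%) more than 2-fold lower, beside 6.45% and 9.95% of all genes at this filter. A low gene can pass this filter through the library in which it is high. At a TPM of 10 the numbers were 17 higher and 4 lower among the fewer genes left, and 4.17% and 4.07% of all genes. The number of list genes left is not given, so 17 and 4 cannot be read against these shares. A TPM of 10 can also be reached in 1 library alone. The lists were chosen with earlier results of these data known. Among the neural progenitor transcription factors, 15 of 36 reached a TPM of 1, of which 10 were more than 2-fold higher and 1 lower, with a median of 1.15. Of the 6 that reached a TPM of 10, 4 were more than 2-fold higher and 0 lower. Some of these 4 reached a TPM of 10 in TA/WT cells alone, among them Pou3f1 (TPM 4.34 and 24.4) and Otx2 (TPM 6.66 and 33.5). Some of the genes counted as higher at a TPM of 1 likewise reached that level in TA/WT cells alone. Lhx2 and Irx3, both lower, reached a TPM of 1 in E14 alone. Pou3f1, a POU factor of the epiblast and neural plate, was 5.62-fold higher (412 and 1550 reads), and Otx2, a factor of the anterior epiblast and forebrain, was 5.03-fold higher (472 and 1587 reads). Lhx2, a factor of the forebrain and eye field, had 74 and 10 reads, and Irx3 had 111 and 43 reads (-0.80). The genes Six3, Dbx1 and Fezf2 of the same list had no reads in either library.

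Proneural and neuronal transcription factors were mostly unread, with 8 of 31 at a TPM of at least 1. Counts past 2-fold in the lists below stand beside 6.45% higher and 9.95% lower of all genes at a TPM of at least 1. Of the 8 genes, 7 were more than 2-fold higher and 1 lower, and the median was 1.30. All 4 that reached a TPM of 10 were more than 2-fold higher, but some of them reached it in TA/WT cells alone, such as Neurod1 (TPM 8.89 and 21.4). Ebf1 and Insm1 passed a TPM of 1 in TA/WT cells alone. Ebf1 had 70 and 400 reads (log2 ratio 3.12, 2.75 to 3.50) and Insm1 had 50 and 206 reads (2.63), whereas Neurog3, a proneural factor of the pancreas and hypothalamus, had 94 and 12 reads (-2.40). Hes6 had the second lowest ratio, 1.12. Neurod2, Neurod6, St18 and Scrt2 were among those with no reads. Progenitor markers that are not transcription factors were divided, with 3 of 10 more than 2-fold higher and 2 lower (median -0.04). N-cadherin (Cdh2) was 10.1-fold higher, from 173 to 1165 reads, and Gpm6a had 22 and 126 reads, while the matrix proteoglycan gene Bcan (-1.87) and the chemokine receptor gene Cxcr4 (-1.48) were lower. Of 13 repressors of neuronal genes, 1 was more than 2-fold higher, Id2 (1.35), 0 were more than 2-fold lower and the median was 0.29. Id1 (TPM 151.4 and 97.8, -0.63) and Id3 (-0.35), of the same family as Id2, had the lowest ratios. Rest, which silences neuronal genes in other cells, had a TPM of 47.9 in E14 and 91.7 in TA/WT cells, a log2 ratio of 0.94 (0.89 to 0.98).

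Cytoskeletal families had medians nearer to 0. Their counts past 2-fold stand beside 6.45% higher and 9.95% lower of all genes at a TPM of at least 1. Of 11 other intermediate filament genes whose TPM reached 1, 1 was more than 2-fold higher and 1 lower, with a median of 0.48. Ina, which encodes the neuronal filament protein internexin, had 713 and 1403 reads (log2 ratio 1.56), and Vim, the vimentin gene of progenitors and many other cells, had a TPM of 114.1 and 214.1 (0.91). Prph, which encodes peripherin of peripheral neurons, went from a TPM of 50.6 to 11.6 (-2.12) and the muscle filament gene Des from 22.5 to 12.3 (-0.88). Of 25 other microtubule-associated protein genes, 2 were more than 2-fold higher and 1 lower, with a median of 0.14. Map1a, the relative of Map1b found in mature neurons, had a TPM of 5.51 and 14.7 (1.41), Gas2l1 had 8.98 and 19.1 (1.09), and the end-binding protein gene Mapre3 had 16.1 and 4.25 (-1.92), with Map6 next to it (-0.92). Of 16 tubulin folding and modifying enzymes, the glutamylase gene Ttll4 (1.29) and Vash2 (1.13), which removes the terminal tyrosine of α-tubulin, were more than 2-fold higher and 0 more than 2-fold lower. In this list 10 of the 16 had a lower TPM in TA/WT cells (median -0.10), with Ttll1 (-0.86) and Vash1 (-0.72) the farthest. None of the 14 kinases and phosphatases of tau and Map2 with a TPM of at least 1 differed by 2-fold in this comparison, with Gsk3b (0.60) and Mark2 (0.56) at the upper end and Gsk3a (-0.47) and the Cdk5 activator gene Cdk5r2 (-0.90) at the lower.

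**Figure D4:**
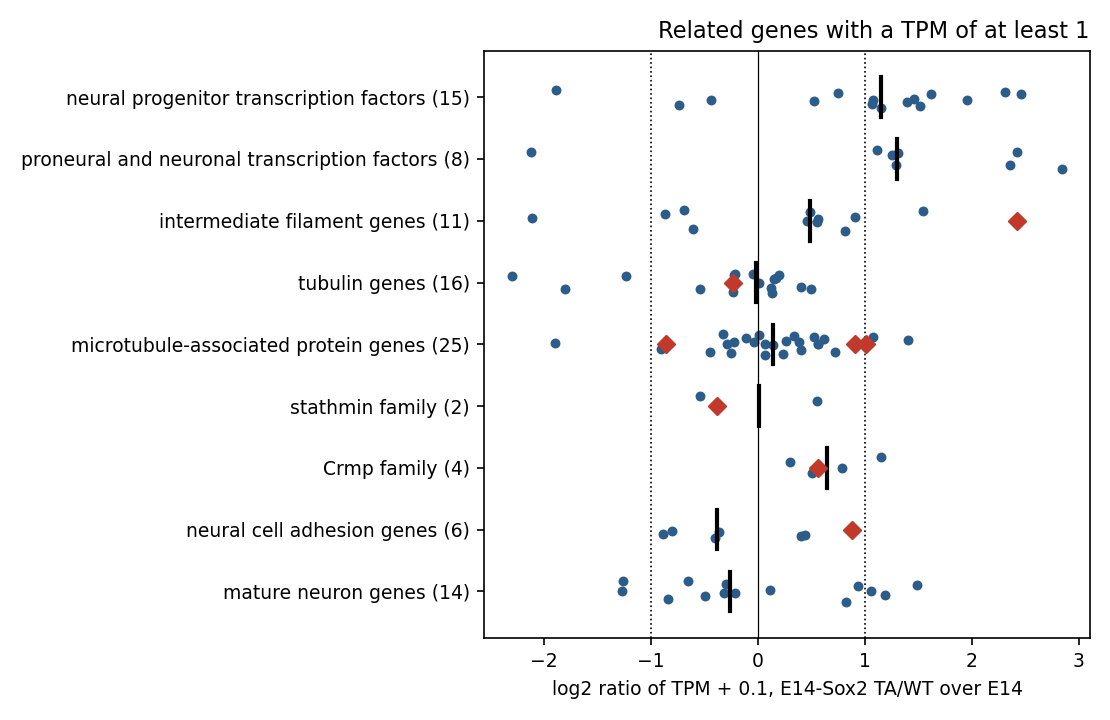
Log2 ratio (TPM plus 0.1) of TA/WT cells over E14 for related genes whose TPM reached 1 in 9 lists (blue points; number of genes in brackets; black bar, median), with those of the 10 genes that belong to a list as red diamonds. Both lists of transcription factors have medians of 1.15 and 1.30, past the dotted 2-fold line. Some genes of both lists reached a TPM of 1 in 1 library alone. The cytoskeletal lists centre between -0.02 and 0.65, and the adhesion and mature neuron lists at -0.39 and -0.26.

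Markers of other cell types were also examined, and their part in the differences above was not tested. At a TPM of at least 1, 6.45% of all genes were more than 2-fold higher and 9.95% more than 2-fold lower. Of 21 genes of mature neurons, 14 reached a TPM of 1, of which 3 were more than 2-fold higher and 2 lower (median -0.26). Their summed TPM was 261.2 in E14 and 212.2 in TA/WT cells. Most of it came from Uchl1 (TPM 176.3 and 111.6), which was named after its values were seen. Uchl1 differed by more than the sum did, so the other genes of the list together were higher in TA/WT cells. The RNA-binding protein gene Elavl4 (94 and 200 reads) and the growth cone gene Gap43 (TPM 13.4 and 30.6) were higher, the vesicular transporter genes Slc17a7 (-1.32) and Slc32a1 (-1.43) were lower, and Slc17a6 had no reads. Rbfox3, the neuronal nuclear antigen, had 106 and 51 reads and was named after its values were seen. The 10 glial genes summed to a TPM of 25.1 and 15.2, and the 4 that reached a TPM of 1 were lower in TA/WT cells, among them Aldh1l1 and Sox10 with a log2 ratio of -0.92 each and Mbp with -0.67. S100b and Aqp4 had 0 reads.

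The 12 neural crest genes summed to a TPM of 33.3 in E14 and 40.7 in TA/WT cells, but to 30.6 and 26.4 without Foxd3, which pluripotent cells use as well and which had a TPM of 2.65 and 14.3. Of the 9 that reached a TPM of 1, 6 were lower (median -0.28), with Snai2 (-1.17) and Snai1 (-0.998) at the lower end and Foxd3 (2.43) and Msx1 (2.19) at the upper, and Tfap2b had 0 reads. The 13 fibroblast genes summed to 75.9 and 48.2, but to 35.8 and 36.8 without the surface protein gene Thy1 (-1.81). Of the 9 that reached a TPM of 1, 5 were higher and 4 lower (median 0.15). The collagen genes Col3a1 (15 and 151 reads) and Col5a1 (0.82) were higher, the receptor gene Pdgfra (-2.04) was lower, and Dcn, Lum and Postn had 0 reads. The 10 skeletal muscle genes summed to 29.2 and 21.3, with Acta1 (1.44) and Myh3 (0.20) higher, Ckm (-1.27) and Des lower and Myf6 at 0 reads. Des (TPM 22.5 and 12.3) made up most of this sum and differed by more than the sum did. The other muscle genes together were thus higher in TA/WT cells. The 11 pancreatic endocrine genes summed to 25.98 and 33.8, but to 17.1 and 12.4 without Neurod1 (TPM 8.89 and 21.4), which is also a proneural factor. Pcsk1 had 53 and 103 reads, Chga had a TPM of 15.7 and 9.83, and Ins1, Ins2, Gcg and Sst had 0 reads.

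**Figure D5:**
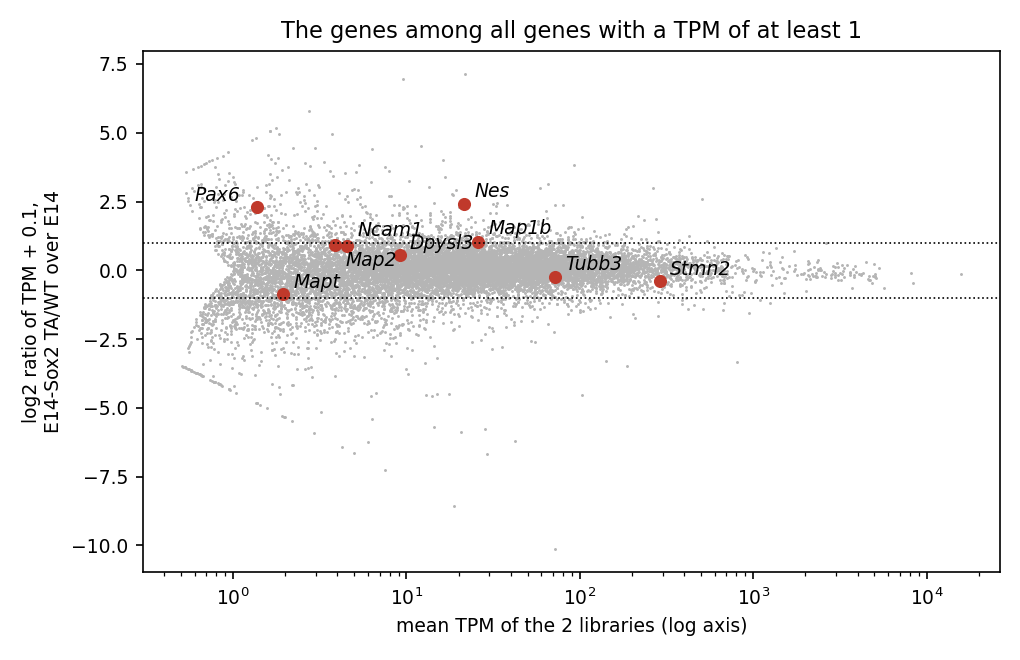
Log2 ratio (TPM plus 0.1) of TA/WT cells over E14 against the mean TPM of both libraries (log axis) for the 13729 genes whose TPM reached 1 (grey), with 9 of the 10 genes in red; dotted lines mark 2-fold. Nes and Pax6 lie above the upper line, Map1b on it, Map2 and Ncam1 just inside, and Tubb3, Stmn2 and Mapt below 0.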

How the data were processed

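The deposited gene table (mm10) was used, with 1 library each of E14 and E14-Sox2 TA/WT cells. The deposited read counts are whole numbers that the authors had not normalized, and the deposited FPKM and TPM values were scaled by the authors per kilobase and per library. The submitters' processing notes name HISAT2 2.1.0, StringTie 2.1.3b, Trimmomatic and bcl2fastq 2.20.0, but the roles, the use of strand and the handling of shared reads are not given in the sources used here. Every value column was mapped to a sample through its label. Ratios of TPM were taken without a pseudocount, with the study's own filter (TPM 10 in either library) and 2-fold threshold, and carry exact 95% Clopper-Pearson intervals from the reads, placed on the TPM scale. The paper reported more genes higher and fewer genes lower in TA/WT cells than were counted here, and the reason was not examined. Levels carry exact Poisson intervals. Medians over lists, chromosomes and all genes are of log2 ratios with 0.1 added to each TPM, and those of the length groups are without it. Alternatives were other filters, pseudocounts and thresholds, TMM (edgeR 4.0.16) and median-of-ratios (DESeq2 1.42.0) scaling, total count, FPKM, centring, and removal of trends (medians in 20 bins) on implied length or, added after seeing the data, on GC content of the longest GENCODE M21 transcript and length. Ratios, intervals and trend removal were tested on simulated data. The 10 genes and the lists were chosen with earlier results of these data known. Genes named from lists were the 2 highest and the 2 lowest ratios at a TPM of at least 1, all genes of the stathmin, Crmp, doublecortin and Pax families, overlapping genes and markers at 0 reads. Some genes are counted in their lists but are not reported here by themselves.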

Additional observations from a re-analysis of the deposited data

How the results depend on the processing

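No paired analysis was possible because each genotype had 1 library. Nes and Map1b were the 2 genes more than 2-fold higher. This number was 1 at 3-fold, with a pseudocount of 1, with TMM, median-of-ratios or total-count scaling, with FPKM, with the ratio centred on its median, with the length trend removed, with GC and length trends removed, and when the whole counting interval had to pass 2-fold. It was 2 or 3 under the other 6 alternatives, and the number lower was 0 under all 16. The median of 0.88 was 0.72 without a filter, 0.73 with a pseudocount of 1, 0.36 with the length trend removed and 0.37 with GC and length trends removed, and it moved less in the other 7. In the related lists, 27 genes higher and 10 lower became 17 and 4 at a TPM of at least 10, which admits fewer genes by construction. No gene of the 9 changed direction under the 9 alternatives run for each. Over all genes past a TPM of 10, the share that was higher among those past 2-fold was 50.6%, and 36.1% with total-count scaling, 35.9% with FPKM and 41.3% with the centred ratio. Pax6, Map2, Ncam1 and Mapt rest on at most 830 reads in a library, and the spread between cultures was not measured.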
